A study of Mus musculus with 48 samples.

Results

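Liver RNA of germ-free mice was compared with that of conventionally raised mice at ZT2, early in the light phase, in the 8 ZT2 libraries of the 48 in the series. ZT is the time after lights on, in hours. The libraries were taken by their labelled time: 4 from germ-free (GF) mice, raised without any microbes, and 4 from conventionally raised (convR) mice, with 2 of each status in males and 2 in females. All mice were labelled C57BL/6j, aged 15 to 16 weeks and fed ad libitum, and liver was also sampled at ZT6, ZT10, ZT14, ZT18 and ZT22, every 4 h. Males and females were counted in separate tables, so sex and table cannot be told apart, and both fits kept each sex against its own controls. The 2 libraries of each combination are numbered in the labels, which do not say that they came from separate animals, so p-values measure the spread between these samples. Whether 1 animal or a pool gave a library is not stated, and a germ-free mouse lacks its flora from birth, so every difference is one between lifelong states.

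The liver sets its daily metabolism by a clock within its cells and by signals of feeding and fasting, and a mouse eats mostly in the dark. Early light is therefore the time at which the liver moves from the fed towards the fasting programme. Products of gut bacteria reach the liver through the portal blood, in which bile acids that the bacteria have deconjugated and modified return. Bile acids feed back on their own synthesis through the nuclear receptor FXR (Nr1h4) and the gut hormone FGF15. Low insulin leaves FOXO factors in the nucleus, where they switch on genes such as Igfbp1 and Irs2.

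Total counts at ZT2 ran from 31637260 to 46734254 per library, and the 10 most abundant genes held 16.49 to 23.04% of them. Levels are given as CPM, a gene's count scaled to its library's total. The hepatocyte markers, among them albumin and transferrin, summed to 109000 to 138000 CPM in the convR libraries and 129000 to 177000 CPM in the GF libraries, so the tissue matched its label. Library 2 of the GF females stood apart: it held 186 CPM of Nnt, a mitochondrial transhydrogenase that is partly deleted in C57BL/6J mice, against 46.4 to 67.8 CPM in the other 7 libraries. Library 2 of the GF females at ZT6 and ZT10 held similar levels, 173 and 175 CPM. These levels bear on the strain label of the 3 libraries, and their strain was not tested. It also held 29.5 CPM of the clock gene Per1 (1.05 to 4.55 CPM in the others), 20.6 CPM of the cell cycle inhibitor Cdkn1a (1.26 to 5.18 CPM) and 287 CPM of the glucocorticoid target Tsc22d3 (73 to 144 CPM). Values without it are given beside the genes and lists in which it stood far above the other GF libraries. In bulk tissue, fewer cells of a type and less RNA per cell cannot be told apart.

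In the 8 libraries, 16769 genes were tested and 96 changed (edgeR quasi-likelihood test, Benjamini-Hochberg adjusted p under 0.05), 0.572% of the genes tested. Of these, 52 were higher in GF liver, 0.31% of the genes tested, and 44 were lower, 0.262%. At an unadjusted p under 0.05 the edgeR test held 2513 of the 16769 genes. DESeq2, run as an alternative test, called 696 of them (384 higher, 312 lower). Counts of list members given below for the 8 libraries are to be read beside these totals. In the fit of all 48 libraries the ZT2 effect was called for 494 of 17867 genes (2.76%), among them 83 of the 96 in the same direction. All 96 differed in the same direction in both sexes. The fit that called them gave both sexes a common effect, which selects for such genes, so this agreement is not separate evidence. The shared scale matters for the balance: without scaling factors the median over all genes moved from -0.001 to -0.125 (log2), and 17.7% rather than 54.2% of the called genes were higher in GF. The calls also rest on few libraries. Leaving out convR female 1 or 2 gave 1 and 2 calls, and leaving out convR male 2 gave 4, all of them among the 96. Leaving out GF female 2 gave 116 calls, of which 62 were among the 96. Of the 96, the Rik-named gene 8430408G22Rik was called in all 8 of these fits and no other gene in more than 6, although none changed its sign.

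**Figure D1:**
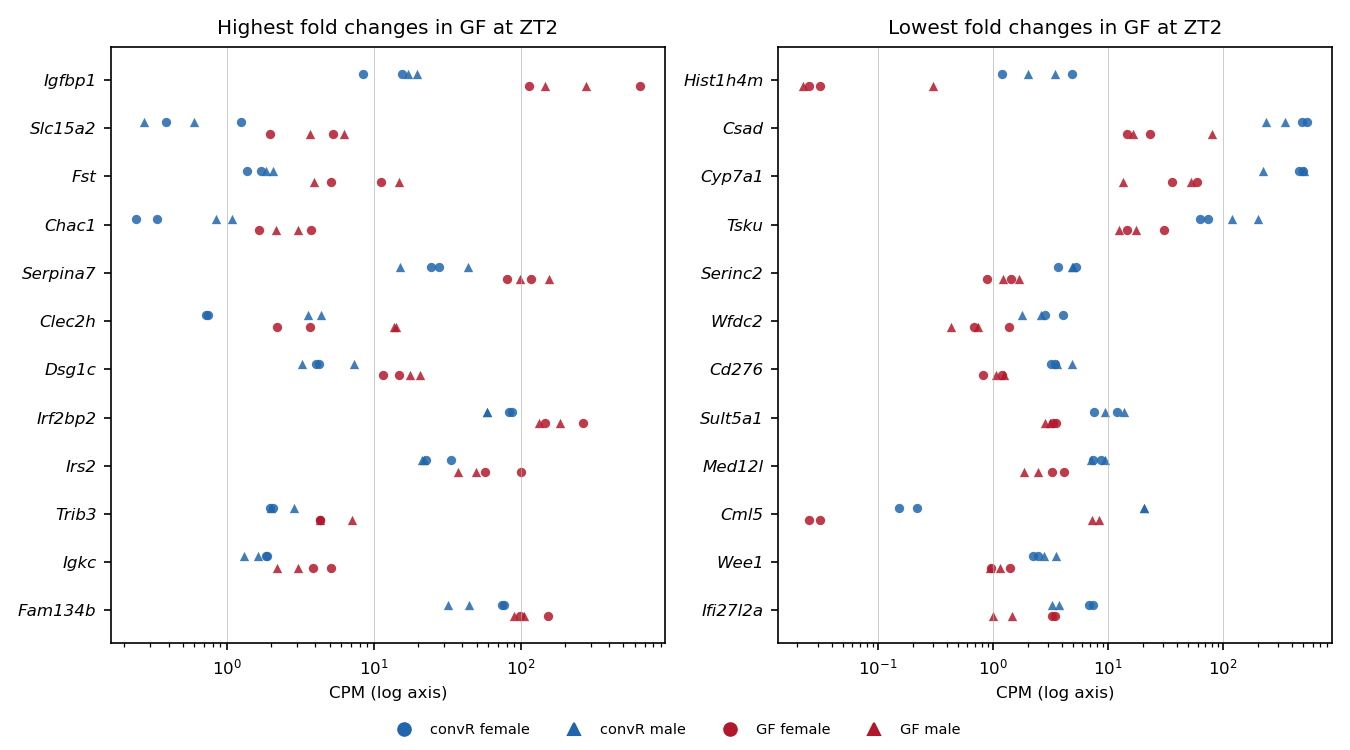
Levels of the 24 genes with the highest and lowest fold changes at ZT2, 1 gene per line, as CPM on a log x axis, each point 1 of the 8 libraries coloured by status and shaped by sex. Igfbp1 sat between 114 and 646 CPM in the 4 GF libraries, all above the 8.45 to 19.6 CPM of the convR libraries, and Cyp7a1 between 13.5 and 59.2 CPM, all below the 222 to 509 CPM of the convR libraries.

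Cyp7a1, the enzyme that sets the pace at which bile acids are made from cholesterol, fell in GF liver at ZT2, and its effect there differed from that at the other times. Cyp7a1 (ENSMUSG00000028240, chr4:6265612-6275633, minus strand, GRCm38) held 222 and 509 CPM in the convR males and 500 and 461 CPM in the convR females. It held 52.5 and 13.5 CPM in the GF males and 59.2 and 35.7 CPM in the GF females. The groups did not overlap, and even the lowest convR library, male 1, lay well above every GF library. From 423 ± 135 to 40.2 ± 20.3 CPM (SD, n = 4 libraries each), the fitted level was 9.74-fold lower, -3.28 ± 0.43 on the log2 scale (edgeR adjusted p = 0.0287). It was called in 5 of the 8 fits that leave out a library, and lost without convR male 2 or either convR female. In the fit of 48 libraries its adjusted p was 7.67e-06, with effects of -3.20 in females and -3.37 in males on the log2 scale.

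The Cyp7a1 effect was called at ZT2 and at no other time. The log2 fold changes at ZT6, ZT10, ZT14, ZT18 and ZT22 were -0.81, -0.12, 0.79, -0.12 and -0.69, and none of these was called. In convR liver the mean level ran 423, 228, 357, 358, 470 and 201 CPM from ZT2 to ZT22, so ZT2 was among its high times. In GF liver it ran 40.2, 126, 259, 588, 373 and 105 CPM, with ZT2 its lowest time and ZT14 its highest. The ZT2 effect minus the mean of the other 5 was -3.10 ± 0.41 (edgeR adjusted p = 0.000475). That difference kept its call in 22 of 23 alternative settings, including without GF female 2 (-2.92, edgeR adjusted p = 0.0136). It lost the call in females fitted alone (-2.43, edgeR adjusted p = 1) and kept it in males fitted alone (-3.77, edgeR adjusted p = 0.0113).

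**Figure D2:**
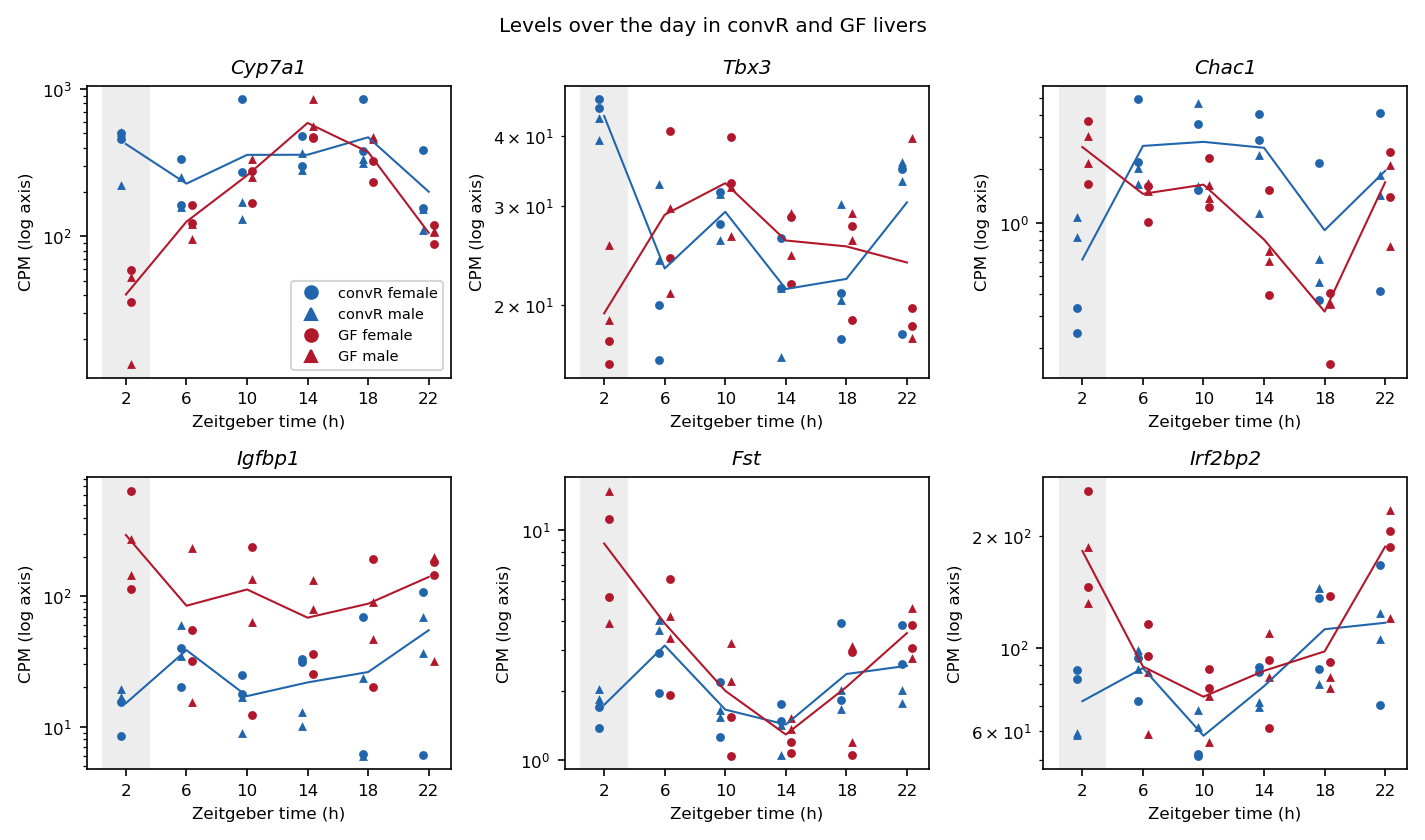
CPM (log y axis) of Cyp7a1, Tbx3, Chac1, Igfbp1, Fst and Irf2bp2 across the 6 times (x axis, ZT in hours), each point a library, lines joining the means of the 4 libraries of a status, with ZT2 shaded. The Cyp7a1 lines part at ZT2 (423 against 40.2 CPM) and cross by ZT14 (358 against 588 CPM).

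Of 14 tested genes of bile acid synthesis, Cyp7a1 alone was called, and the median log2 fold change was 0.04 beside -0.001 for all genes. Cyp8b1, the sterol 12-alpha-hydroxylase that sets the share of cholic acid, held 321, 381, 181 and 175 CPM in convR and 299, 75.2, 77.8 and 22.6 CPM in GF, and the groups overlapped through GF male 1 (log2 fold change -1.24 ± 0.47, edgeR adjusted p = 0.259). Cyp27a1, of the alternative pathway, stood at 491 ± 57.3 and 489 ± 79.5 CPM (SD, n = 4 each). Of 16 genes of bile acid transport and signalling, 0 were called by edgeR, 7 had an unadjusted p under 0.05 (6 higher, 1 lower), and DESeq2 called 4, all higher. Nr0b2, the repressor SHP that lies between FXR and Cyp7a1, held 29.7, 24, 22.3 and 29.7 CPM in convR and 49.4, 76.7, 35.3 and 36.6 CPM in GF. These did not overlap, but its log2 fold change of 0.98 ± 0.20 missed the threshold (edgeR adjusted p = 0.0703). FXR itself (Nr1h4) held 126 ± 21.6 and 88 ± 8.04 CPM, which on the log2 scale is -0.38 ± 0.12 (edgeR adjusted p = 0.179). The bile salt transporters Slc10a1 and Abcb11 had log2 fold changes of -0.02 and 0.21.

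Tbx3, a transcription factor of the T-box family and a target of Wnt signalling in liver, was the other abundant gene that fell at ZT2 and was set apart from the other times. It held 39.3, 43.1, 44.8 and 46.5 CPM in the convR libraries and 25.6, 18.8, 15.7 and 17.3 CPM in the GF libraries, in the order males 1 and 2, females 1 and 2 that is used for each gene from here. The groups did not overlap, and convR varied little. Tbx3 (ENSMUSG00000018604, chr5:119670669-119684724, plus strand) fell from 43.4 ± 3.08 to 19.3 ± 4.37 CPM (SD, n = 4 each), by 1.06 ± 0.14 on the log2 scale (edgeR adjusted p = 0.0271). At ZT6 to ZT22 its effects were 0.39, 0.24, 0.40, 0.39 and -0.22, none of them called. The ZT2 effect minus their mean was -1.30 ± 0.23 (edgeR adjusted p = 0.0282), a call kept in 10 of 23 alternative settings. It was kept without convR male 1 or GF male 1 and lost without any other ZT2 library (without GF female 2, edgeR adjusted p = 0.107). The ZT2 call of the 8 libraries was lost without convR male 2, GF male 2 or either convR female.

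Rnf43, Notum and Fzd7, 3 further genes of Wnt signalling, all known as targets of beta-catenin or as parts of the receptor complex, were called lower at ZT2, and this list of 18 genes was put together after the values were seen. Rnf43, a ubiquitin ligase that removes Wnt receptors, held 39.1, 42.6, 39.6 and 41 CPM in convR and 25.2, 25.4, 25.8 and 20.6 CPM in GF. The spread within each status was small, and the fall was 0.62 ± 0.10 on the log2 scale (edgeR adjusted p = 0.0353). Its effects at ZT6 to ZT22 were 0.14, 0.20, 0.01, 0.60 and 0.15, and that at ZT18 was called in the opposite direction (edgeR adjusted p = 0.0196). The ZT2 effect minus the mean of the others was -0.84 ± 0.17 and missed the threshold (edgeR adjusted p = 0.0911). Notum, a secreted inhibitor that strips the lipid from Wnt proteins, held 40.6, 42.6, 53.4 and 55.8 CPM in convR and 25.5, 24.9, 36.9 and 34.5 CPM in GF. Fzd7, a Wnt receptor, held 38.9, 43.4, 49.4 and 48.8 CPM in convR and 24.3, 26.6, 29.8 and 22.5 CPM in GF. Neither overlapped between statuses, with log2 fold changes of -0.54 ± 0.07 and -0.67 ± 0.12 (edgeR adjusted p = 0.0294 and 0.046). Of the 18 genes of the list, edgeR called 4 lower and 0 higher, with 5 lower and 6 higher at an unadjusted p under 0.05, and DESeq2 called 4 lower and 2 higher. The median was 0.01, with 9 positive and 9 negative, so the list did not move one way. Rnf43, Notum and Fzd7 were each called in 2 of the 8 fits that leave out a library, those without GF female 1 or GF female 2. Axin2, the usual reporter of the pathway, held 11.8, 15, 19.7 and 18.2 CPM in convR and 10.9, 11.8, 11.9 and 9.55 CPM in GF (log2 fold change -0.40 ± 0.15, edgeR adjusted p = 0.259).

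Igfbp1, Irs2, 8430408G22Rik and Fst, which FOXO factors are known to switch on, rose in GF liver. Igfbp1, a liver-secreted binding protein of insulin-like growth factors that insulin represses, held 17, 19.6, 15.5 and 8.45 CPM in convR and 145, 276, 114 and 646 CPM in GF. Every GF library was above every convR library, with GF female 2 the highest. Igfbp1 (ENSMUSG00000020429, chr11:7197782-7202546, plus strand) had the largest rise among the named genes, a fitted 20.6-fold, or 4.37 ± 0.58 on the log2 scale (edgeR adjusted p = 0.0294). Without GF female 2 it was 3.56 ± 0.27 (edgeR adjusted p = 0.00339). The call was lost without GF male 2 or any 1 of the 4 convR libraries. Its effects at ZT6 to ZT22 were 1.03, 2.86, 1.67, 2.04 and 1.47, all positive and none called. The ZT2 effect was the largest of the 6, but its difference from the mean of the others missed the threshold (2.55 ± 0.96, edgeR adjusted p = 0.479).

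Irs2, the insulin receptor substrate that carries the signal in liver (ENSMUSG00000038894, chr8:10984681-11008458, minus strand), held 21.3, 21.9, 33.5 and 22.5 CPM in convR and 37.1, 49.2, 56.9 and 99.8 CPM in GF. The groups did not overlap, and convR female 1 and GF female 2 were the highest of each. The rise was 1.36 ± 0.20 (edgeR adjusted p = 0.0351), and 1.15 ± 0.15 without GF female 2 (edgeR adjusted p = 0.0246). The call was lost without GF male 2 or any 1 of the convR libraries. At the other 5 times its effects lay between 0.00 and 0.93 and none was called, and the difference of ZT2 from their mean was 1.01 ± 0.38 (edgeR adjusted p = 0.469).

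The most stable rise at ZT2 was that of 8430408G22Rik (ENSMUSG00000048489, chr6:116650609-116652794, plus strand), now named Depp1, a FOXO-induced protein linked to autophagy. Its name put it outside the rule for named genes, so its choice followed a look at its values. Its level was 27.6, 43.7, 18.8 and 20.2 CPM in convR and 164, 231, 105 and 88.9 CPM in GF. No GF library reached down to a convR library, and the males were above the females in both statuses. The log2 fold change was 2.52 ± 0.18 (edgeR adjusted p = 0.00246), and it was called in all 8 fits that leave out a library, with values of 2.38 to 2.65. At ZT6 its effect was -0.95, at ZT10 to ZT22 between 0.59 and 0.92, and none of these was called. The F test of unequal effects among the 6 times called it (edgeR adjusted p = 0.0445), as it did 780 of 17867 genes (4.37%). The difference of ZT2 from the mean of the others was 2.13 ± 0.53 (edgeR adjusted p = 0.218).

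Fst, the secreted activin inhibitor follistatin and a liver-derived hormone of fasting, held 2.04, 1.83, 1.69 and 1.37 CPM in convR and 3.92, 14.8, 5.08 and 11.1 CPM in GF. The convR libraries were close together and the GF libraries spread over a wide range above them. Fst (chr13:114452290-114458951, minus strand) rose by 2.46 ± 0.41 (edgeR adjusted p = 0.0438). It kept that call in 1 of the 8 fits that leave out a library, the one without GF male 1, and without GF female 2 it was 2.21 ± 0.42 (edgeR adjusted p = 0.0602). Its effects at ZT6 to ZT22 were 0.42, 0.25, -0.03, 0.02 and 0.67, and the difference from their mean narrowly missed the threshold (2.19 ± 0.42, edgeR adjusted p = 0.0538).

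The list of 18 FOXO targets was also put together after the values were seen. By edgeR it held 4 called higher (Igfbp1, Irs2, Fst and 8430408G22Rik) and 0 lower, with 12 higher and 0 lower at an unadjusted p under 0.05. DESeq2 called 8 higher and 0 lower. Over all 16769 genes tested, 2513 had an unadjusted p under 0.05 and DESeq2 called 384 higher and 312 lower. In 17 of 18 the log2 fold change was positive, and the median was 0.76 at ZT2 beside -0.001 for all genes. Without GF female 2, edgeR called 3 higher and the median was 0.58, while the median in females of the fit of 48 libraries went from 0.69 to 0.23. Its medians at ZT6, ZT10, ZT14, ZT18 and ZT22 in the fit of 48 libraries were 0.01, 0.14, 0.07, 0.02 and 0.36. Ccng2, a cyclin linked to growth arrest, held 11.7, 9, 17 and 15.6 CPM in convR and 17.9, 24.8, 17.4 and 37.5 CPM in GF (log2 fold change 1.01 ± 0.22, edgeR adjusted p = 0.0799, and 0.81 ± 0.21 without GF female 2). Fbxo32, the atrogin ubiquitin ligase, held 3.12, 2.24, 3.25 and 2.67 CPM in convR and 4.64, 7.23, 3.56 and 5.18 CPM in GF (0.98 ± 0.22, edgeR adjusted p = 0.0874).

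The promoters of Igfbp1 and Irs2 are shown because they are the canonical FOXO-regulated genes among the named ones. The letters are those of RefSeq on GRCm38.p6, 5′ to 3′ on the gene's strand, and capitals mark matches to CAAAACA, a heptamer that FOXO factors are known to bind, or to its reverse complement. The Igfbp1 window is chr11:7197537-7197836 on the plus strand, with the match starting 108 bases before the start site (position -108). The Irs2 window is chr8:11008880-11009179 on the minus strand, with the reverse complement at position -37. Positions count from the start site of the promoter window, which differs from the start in the gene coordinates given above. The Irs2 window lies wholly outside those coordinates.
Igfbp1: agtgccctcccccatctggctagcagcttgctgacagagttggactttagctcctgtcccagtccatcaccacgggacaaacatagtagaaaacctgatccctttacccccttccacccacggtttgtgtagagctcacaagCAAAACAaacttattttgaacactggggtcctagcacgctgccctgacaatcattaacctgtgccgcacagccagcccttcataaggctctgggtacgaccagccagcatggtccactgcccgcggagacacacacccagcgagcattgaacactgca
Irs2: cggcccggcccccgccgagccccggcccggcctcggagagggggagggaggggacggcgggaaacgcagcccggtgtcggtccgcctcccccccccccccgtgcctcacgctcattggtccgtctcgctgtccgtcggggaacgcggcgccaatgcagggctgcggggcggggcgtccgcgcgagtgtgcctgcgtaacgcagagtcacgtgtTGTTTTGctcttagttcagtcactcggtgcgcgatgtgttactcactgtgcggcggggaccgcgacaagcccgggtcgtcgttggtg
On either strand, 6.28% of the 32851 promoters of the same 300 bases held CAAAACA. Among the called genes with a promoter entry, 8 of the 32 higher in GF and 1 of the 24 lower held it. The percentage is over promoter entries, while a called gene counted if any of its entries matched. The shares therefore differ in unit and are not directly comparable. A match is a description of letters, not a site.

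Of the fixed list of fasting and gluconeogenesis, 15 genes were tested and 2 were called, Igfbp1 and Irs2, both higher, with a median of 0.43 that became 0.09 without GF female 2. Pck1, which encodes the first committed enzyme of gluconeogenesis, held 938, 518, 891 and 827 CPM in convR and 1420, 1580, 1060 and 4410 CPM in GF. The groups did not overlap, and GF female 2 lay far above the other GF libraries. The log2 fold change was 1.47 ± 0.38 (edgeR adjusted p = 0.121), and 0.90 ± 0.22 without GF female 2 (edgeR adjusted p = 0.101). G6pc, the glucose-6-phosphatase that releases glucose, overlapped between statuses and was also highest in GF female 2, at 991 CPM against 413 to 497 CPM in the other 3 GF libraries. Its log2 fold change was 0.89 ± 0.43, and 0.46 ± 0.28 without that library (edgeR adjusted p = 0.372 and 0.488). The 12 genes of the glucocorticoid and metallothionein list all had positive values, with a median of 0.57, and of 0.98 in females and 0.17 in males. Of these 12, 0 were called by edgeR, 2 had an unadjusted p under 0.05, both higher, and DESeq2 called 1. These values rest on GF female 2, which held the highest Tsc22d3 of the 8 libraries. Without it the median of the list was -0.03, with 6 of 12 positive, and the median in females went from 0.98 to -0.12.

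Chac1 and Trib3, both induced by the amino acid stress factor ATF4, rose at ZT2. Chac1, which degrades glutathione (ENSMUSG00000027313, chr2:119351229-119354381, plus strand), held 1.08, 0.835, 0.332 and 0.241 CPM in convR and 2.16, 3.06, 1.65 and 3.73 CPM in GF. It was low throughout, but the groups did not overlap, and the rise was 2.32 ± 0.41 (edgeR adjusted p = 0.0489). At ZT6 to ZT22 its effects were -0.77, -0.74, -1.55, -1.21 and -0.07, all of the opposite sign and none called. The ZT2 effect minus their mean was 3.31 ± 0.63 (edgeR adjusted p = 0.0499), a call at the threshold, kept in 6 of 23 alternative settings. It was kept without GF female 1 and lost without any other ZT2 library (without GF female 2, 2.99 ± 0.67, edgeR adjusted p = 0.213). Its ZT2 call in the 8 libraries was kept in 1 of the 8 fits that leave out a library, the one without GF female 2. Trib3, a pseudokinase that restrains AKT and ATF4 (chr2:152337422-152344032, minus strand), held 2.85, 1.98, 2.05 and 1.97 CPM in convR and 4.3, 7.05, 4.3 and 4.27 CPM in GF. It rose by 1.29 ± 0.20 (edgeR adjusted p = 0.0353) and was also called at ZT22 (edgeR adjusted p = 0.0156). Trib3 was called in 2 of the 8 fits that leave out a library, those without GF male 1 or GF female 2.

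Of the 15 genes tested in the list of amino acid stress and ATF4, edgeR called 2 higher and 0 lower. At an unadjusted p under 0.05 there were 3 higher and 1 lower, and DESeq2 called 2 higher and 1 lower. The median was 0.17. Ddit3, the stress factor CHOP, held 10.7, 9.08, 6.75 and 8.23 CPM in convR and 4.04, 2.9, 5.11 and 3.51 CPM in GF. It was lower in each GF library, with a log2 fold change of -1.03 ± 0.20 that missed the threshold (edgeR adjusted p = 0.0657). Asns, asparagine synthetase, ran from 0.241 to 3.1 CPM in convR and 0.411 to 7.4 CPM in GF (0.78 ± 0.60, edgeR adjusted p = 0.599).

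The promoters of the 2 called members are shown with capitals at the match to TGATGNAA, the core of the C/EBP-ATF response element, here as its reverse complement in both. The Chac1 window is chr2:119350992-119351291 on the plus strand, with the match at position -193. The Trib3 window is chr2:152344011-152344310 on the minus strand, with the match at position 14 after the window's start site. By the gene coordinates given above, that match lies before the start of Trib3.
Chac1: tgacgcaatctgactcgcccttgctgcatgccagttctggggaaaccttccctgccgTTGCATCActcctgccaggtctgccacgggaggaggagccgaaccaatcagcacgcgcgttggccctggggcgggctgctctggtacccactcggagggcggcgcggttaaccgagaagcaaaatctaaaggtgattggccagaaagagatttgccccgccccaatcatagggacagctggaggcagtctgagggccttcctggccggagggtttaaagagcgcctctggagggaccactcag
Trib3: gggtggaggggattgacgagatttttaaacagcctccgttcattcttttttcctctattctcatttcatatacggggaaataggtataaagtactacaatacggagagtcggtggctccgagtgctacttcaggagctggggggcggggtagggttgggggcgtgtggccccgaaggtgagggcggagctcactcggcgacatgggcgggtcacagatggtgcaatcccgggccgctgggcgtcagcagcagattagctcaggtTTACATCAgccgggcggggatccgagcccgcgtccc
TGATGNAA, on either strand, was in 3.97% of the 32851 promoters, in 4 of the 32 called higher and in 0 of the 24 called lower. Called genes again counted by any of their promoter entries, so these shares are not directly comparable with the percentage either.

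Slc15a2, Irf2bp2 and Clec2h also rose at ZT2 and were called at few or no other times. For none of them was the ZT2 effect called as different from the mean of the others. The F test of unequal effects among the times called Irf2bp2 (edgeR adjusted p = 0.0334). It did not call Slc15a2 or Clec2h (edgeR adjusted p = 0.0653 and 0.288). Slc15a2, a proton-coupled transporter of peptides, held 0.27, 0.6, 1.25 and 0.385 CPM in convR and 6.23, 3.65, 1.96 and 5.25 CPM in GF, a rise of 2.89 ± 0.49 (edgeR adjusted p = 0.0452). It was called at no other time, where its effects ran from -0.43 to 1.43. Irf2bp2, a transcriptional corepressor, held 59.3, 58.5, 87.5 and 82.8 CPM in convR and 132, 186, 146 and 264 CPM in GF, a rise of 1.47 ± 0.18 (edgeR adjusted p = 0.0251) and of 1.32 ± 0.17 without GF female 2. It was called at ZT22 as well. Clec2h, a C-type lectin, held 3.54, 4.38, 0.716 and 0.746 CPM in convR and 14.2, 13.8, 3.66 and 2.18 CPM in GF. Males lay above females, and the rise was 2.02 ± 0.19 (edgeR adjusted p = 0.0123), with no call at another time. Of the 8 fits that leave out a library, Clec2h was called in 6 (lost without either convR female), Irf2bp2 in 4 (lost without any 1 of the convR libraries) and Slc15a2 in 1, the one without GF female 1.

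**Figure D3:**
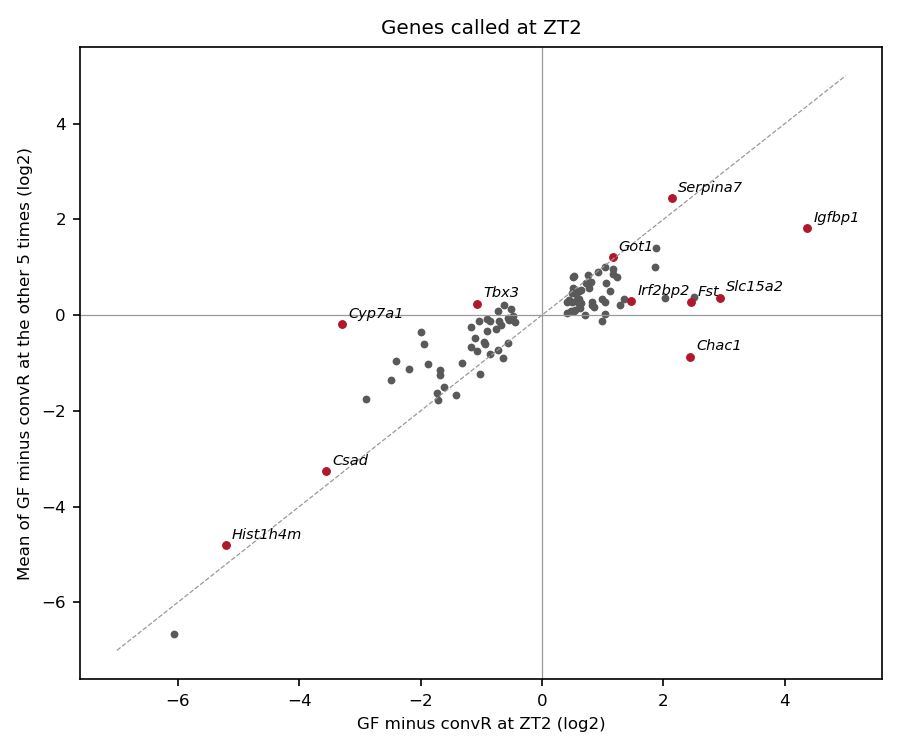
GF effect at ZT2 (x axis, log2) against the mean GF effect at the other 5 times (y axis, log2) in the fit of 48 libraries, 1 point per gene called at ZT2, with 11 genes marked by name and a dashed line where both are equal. Cyp7a1 lies far from the diagonal at -3.29 on the x axis, while Csad lies close to it at -3.56.

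A second group of ZT2 calls was present through the day. Of the 96, 13 were also called in the same direction at all 5 other times, 48 at 1 to 4 of them and 35 at none. Calls in either direction left 33 with no call at another time. The 13 included Csad, Mat1a, Cd276 and Wfdc2. In 53 of the 96 (55.2%) the effect was largest at ZT2 in size. Genes called at a time are selected for a large effect there: in the fit of 48 libraries, 52.8 to 76.5% of the genes called at each of the 6 times had their largest effect at that time (ZT2 55.7%), against 12.4% of all genes at ZT2, so nothing particular to ZT2 is read from the 53. In 2 it was called at another time with the opposite sign (Rnf43, and Pex26, a peroxisome import factor chosen for this after its values were seen). Unequal effects among the times were called by the F test for 23 of the 96. A gene called at ZT2 alone is not shown to differ from the other times, which the next comparison tests.

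Csad, whose enzyme makes the precursor of taurine, held 234, 347, 535 and 481 CPM in convR and 80.6, 16.5, 14.5 and 23.3 CPM in GF. The groups did not overlap, and GF male 1 was the highest GF library. Csad (ENSMUSG00000023044, chr15:102176999-102204724) fell by 3.55 ± 0.59 on the log2 scale (edgeR adjusted p = 0.0438). It was called at all 5 other times with effects of -2.52 to -3.69, and the ZT2 effect did not differ from their mean beyond error (-0.31 ± 0.42, edgeR adjusted p = 0.941). With 8 libraries its call was kept in 1 of the 8 fits that leave out a library, the one without GF male 1. In the fit of 48 the adjusted p was 7.67e-06. The list of taurine and sulfur amino acid genes held 13 tested, with 2 called higher and Csad lower by edgeR, 7 higher and 1 lower by DESeq2, and a median of 0.40. Mat1a, which makes the methyl donor S-adenosylmethionine, held 1790, 1770, 2980 and 3040 CPM in convR and 4190, 3570, 4170 and 4250 CPM in GF, a rise of 0.93 ± 0.14 (edgeR adjusted p = 0.0351). Cth, the cysteine-forming enzyme of transsulfuration, held 358, 322, 437 and 414 CPM in convR and 799, 587, 891 and 582 CPM in GF, a rise of 1.04 ± 0.16 (edgeR adjusted p = 0.0353). Cdo1, which opens the route from cysteine to taurine, had a value of 0.42 ± 0.12 (edgeR adjusted p = 0.152). Mat1a was called in 2 of the 8 fits that leave out a library (those without GF female 1 or GF female 2) and Cth in 1 (without GF female 2).

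Of 16 genes of amino acid and urea metabolism, 2 were called higher and 0 lower by edgeR, 10 had an unadjusted p under 0.05, all higher, and DESeq2 called 9, all higher, with a median of 0.47. Got1, the cytosolic aspartate aminotransferase, held 158, 154, 245 and 195 CPM in convR and 269, 374, 337 and 574 CPM in GF. The rise was 1.17 ± 0.17 (edgeR adjusted p = 0.0351), and 1.02 ± 0.16 without GF female 2 (edgeR adjusted p = 0.0336). Of the 8 fits that leave out a library, Got1 was called in 3 (without GF male 1, GF female 1 or GF female 2).

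Other persistent genes were Serpina7, thyroxine-binding globulin, and Dsg1c, a desmosomal cadherin. Serpina7 held 15, 43.6, 24.6 and 27.9 CPM in convR and 156, 98.4, 118 and 80.7 CPM in GF, a rise of 2.14 ± 0.31 (edgeR adjusted p = 0.0351), with calls at 4 other times. Dsg1c rose by 1.89 ± 0.22 (edgeR adjusted p = 0.0234) and was called at 4 other times. Fam134b, a receptor for autophagy of the endoplasmic reticulum, rose by 1.17 ± 0.18 (edgeR adjusted p = 0.0353) and was called at 4 other times. On the lower side, Cd276, an immune checkpoint protein, held 4.84, 3.6, 3.43 and 3.2 CPM in convR and 1.24, 1.06, 0.814 and 1.2 CPM in GF, a fall of 1.68 ± 0.17 (edgeR adjusted p = 0.0218). Wfdc2, a secreted protease inhibitor, went from 2.83 ± 0.925 to 0.813 ± 0.409 CPM and Med12l, a Mediator subunit, from 8.18 ± 1.12 to 2.93 ± 0.976 CPM (SD, n = 4 each). Serinc2 and Sult5a1 fell by 1.73 ± 0.19 and 1.61 ± 0.19 (edgeR adjusted p = 0.0234 and 0.0251). Hist1h4m, a histone H4 gene of a family with near-identical copies, held 3.49, 2.01, 1.2 and 4.91 CPM in convR and 0.3, 0.0225, 0.0254 and 0.0316 CPM in GF, a fitted fall of 4.69 ± 0.72 (edgeR adjusted p = 0.0353) that is uncertain between copies. Cml5, which was called at 1 other time and so was not persistent, fell by 1.36, and it overlaps the gene model Gm11128, so its reads are uncertain too. Dsg1c and Cd276 were called in 6 of the 8 fits that leave out a library, both lost without either convR female, and Serinc2 in 5, lost without these or convR male 2. Sult5a1 was called in 4, Cml5 in 3, Serpina7 in 2, and Fam134b, Wfdc2, Med12l and Hist1h4m in 1 each.

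Tsku, a proteoglycan that liver releases into the blood, fell at ZT2, ZT6 and ZT10. It held 200, 119, 74.7 and 62.7 CPM in convR and 17.4, 12.5, 14.6 and 30.5 CPM in GF, so the male controls were the highest and no GF library reached a convR library. It fell by 2.39 ± 0.40 (edgeR adjusted p = 0.0438), a call kept in 1 of the 8 fits that leave out a library, the one without GF female 2. The effects at ZT6 and ZT10 were -1.11 and -2.50, both called, while those at ZT14, ZT18 and ZT22 were -0.53, -0.25 and -0.40. The F test among the times called it (edgeR adjusted p = 0.00146), but the difference of ZT2 from the mean of the others missed the threshold (-1.44 ± 0.30, edgeR adjusted p = 0.0911).

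Clock output was lower at ZT2 for 2 of 12 tested factors. Hlf, a PAR-bZIP factor under clock control, held 29.3, 25.3, 30.6 and 30.6 CPM in convR and 17.8, 17.2, 19.8 and 21.7 CPM in GF, a fall of 0.48 ± 0.08 (edgeR adjusted p = 0.0353). Its effects at the other 5 times lay between -0.07 and 0.00, but the F test among the times did not call it (edgeR adjusted p = 0.272). Wee1, a clock-controlled kinase that holds back mitosis, held 2.78, 3.52, 2.46 and 2.21 CPM in convR and 1.16, 0.946, 0.966 and 1.42 CPM in GF, a fall of 1.16 ± 0.20 (edgeR adjusted p = 0.0491). Both genes were called in 1 of the 8 fits that leave out a library, the one without GF female 2. For Wee1 the effect was also called at ZT6 (-0.68) and ZT10 (-0.75), and the F test among times called it (edgeR adjusted p = 0.00942). Of the 15 core clock genes, 0 were called by edgeR, 6 had an unadjusted p under 0.05 (4 higher, 2 lower), and DESeq2 called 3 higher and 1 lower. Npas2 and Arntl, the activating partners that peak near this time, had values of 1.24 ± 0.25 and 0.64 ± 0.13 (edgeR adjusted p = 0.0657 and 0.07). Bhlhe40, a repressor of the clock, held 131, 61.8, 97 and 97.4 CPM in convR and 26.9, 52.8, 33.6 and 46.9 CPM in GF (-1.15 ± 0.26, edgeR adjusted p = 0.0878). Per1 ran from 1.05 to 29.5 CPM in GF, with GF female 2 the highest, and its log2 fold change was 1.01 ± 0.90 with that library and -0.50 ± 0.46 without it (edgeR adjusted p = 0.657 and 0.671).

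Of 24 interferon and antigen presentation genes, edgeR called 1, lower: Irf7, the master regulator of interferon induction. DESeq2 called 3, all lower. Irf7 held 29.4, 21.7, 39.9 and 38.1 CPM in convR and 14.3, 13.9, 18.4 and 13.5 CPM in GF, a fall of 0.94 ± 0.15 (edgeR adjusted p = 0.0353) that was called at 3 other times and, at ZT2, kept in 1 of the 8 fits that leave out a library (without GF female 2). The list's median was -0.35, with 22 of 24 negative. At ZT6 to ZT22 the median in the fit of 48 libraries was -0.28, -0.077, -0.217, -0.125 and -0.376, beside -0.353 at ZT2. In the fit of 48 libraries the median was -0.65 in females, with 24 of 24 negative. In males it was -0.01, with 12 of 24 positive. The difference of the sexes was called by edgeR for 0 of the 24, with 8 at an unadjusted p under 0.05, and by DESeq2 for 0. Over all 17867 genes, 1611 had an unadjusted p under 0.05 for this difference and DESeq2 called 32. Ifi27l2a, an interferon-induced gene outside that list but named by its size, fell by 1.15 ± 0.16 (edgeR adjusted p = 0.0294). Of 17 heat shock and unfolded protein genes, 16 were negative with a median of -0.56. Of these 17, 0 were called by edgeR, 11 had an unadjusted p under 0.05, all lower, and DESeq2 called 2, both lower. Hspa1b, an inducible HSP70 chaperone, held 99, 18.9, 18.3 and 11.8 CPM in convR and 6.61, 5.25, 5.85 and 3.82 CPM in GF (-2.37 ± 0.54, edgeR adjusted p = 0.0887). The groups did not overlap, and convR male 1 was far above the other 3 controls. Of 17 proliferation genes, 16 were negative with a median of -0.58. Of these, 0 were called by edgeR, 10 had an unadjusted p under 0.05, all lower, and DESeq2 called 5, all lower. In the fit of 48 libraries the proliferation median was -0.588 at ZT2, and -0.829, -0.593, -1.115, -0.933 and -0.93 at ZT6 to ZT22. The fall was therefore not particular to ZT2. Of 23 acute phase genes, 1 was called higher by edgeR (Crp, 0.57 ± 0.08, edgeR adjusted p = 0.0294) and 5 by DESeq2, with a median of 0.16. Insig2, which holds the sterol sensor SCAP in the endoplasmic reticulum, was the 1 called of 16 lipogenesis genes. It held 192, 212, 155 and 145 CPM in convR and 257, 302, 294 and 311 CPM in GF, a rise of 0.87 ± 0.13 (edgeR adjusted p = 0.0351). In the fits that leave out 1 of the 8 libraries, Ifi27l2a and Crp were each called in 3 (those without GF male 2, GF female 1 or GF female 2) and Insig2 in 2 (those without GF male 1 or GF female 2).

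Markers of other cells were checked beside these lists. All 8 markers of B and plasma cells had positive values, with a median of 1.002, and their sum ran from 10.1 to 21.3 CPM in convR and 12.5 to 33.6 CPM in GF. Igkc, the kappa light chain, was the 1 called by edgeR (2 by DESeq2), at 1.62, 1.3, 1.87 and 1.83 CPM in convR and 2.18, 3.06, 3.86 and 5.12 CPM in GF, a rise of 1.19 ± 0.19 (edgeR adjusted p = 0.0353) kept in 1 of the 8 fits that leave out a library, the one without GF male 1. Kupffer cell markers summed to 359 to 711 CPM in convR and 302 to 798 CPM in GF, with 0 of 13 called by edgeR or DESeq2 and 0 at an unadjusted p under 0.05. T and NK cell markers summed to 3.39 to 5.19 and 3.74 to 5.25 CPM, with 0 of 10 called by edgeR or DESeq2 and 2 at an unadjusted p under 0.05, both higher. All 10 hepatocyte markers had positive values, with a median of 0.32. Of these, 0 were called by edgeR, 5 had an unadjusted p under 0.05, all higher, and DESeq2 called 3, all higher. The part of cell makeup in the other results was not tested.

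**Figure D4:**
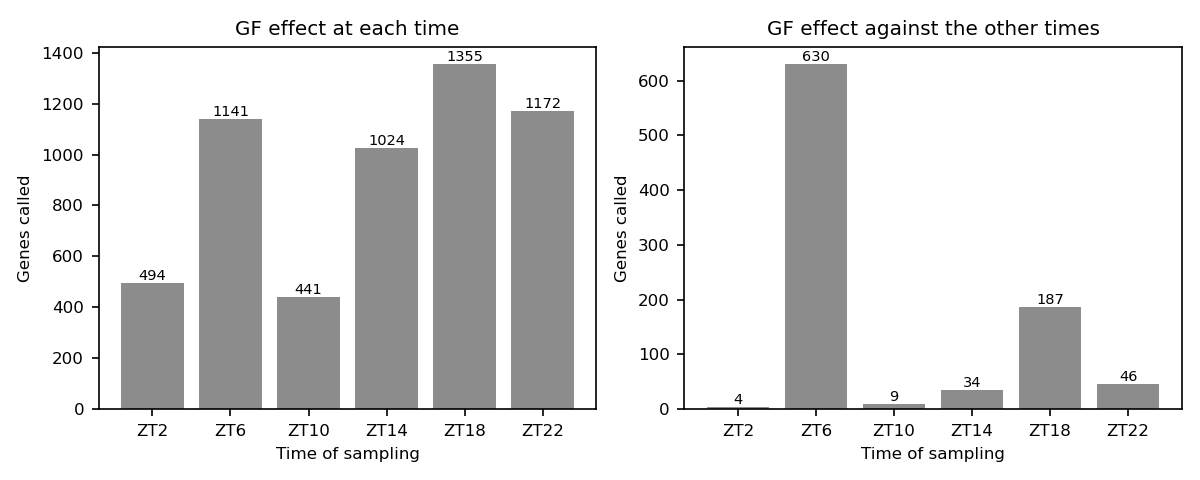
Left, the number of genes with a GF effect (edgeR adjusted p under 0.05, y axis) at each of the 6 times (x axis) in the fit of 48 libraries, and right, the number whose effect at that time differed from the mean of the other 5. ZT2 had 494 of the first kind and 4 of the second, against 1141 and 630 at ZT6.

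ZT2 had the second lowest count of calls of the 6 times. In the fit of 48 libraries, the GF effect was called for 494 genes at ZT2, 1141 at ZT6 (6.39%), 441 at ZT10 (2.47%), 1024 at ZT14 (5.73%), 1355 at ZT18 (7.58%) and 1172 at ZT22 (6.56%). The effect at ZT2 differed from the mean of the other 5 for 4 genes, 0.0224% of the 17867 tested, of which 2 were higher (0.0112%) and 2 lower (0.0112%). The same contrast called 630 genes for ZT6 (3.53%), 9 for ZT10 (0.0504%), 34 for ZT14 (0.19%), 187 for ZT18 (1.05%) and 46 for ZT22 (0.257%). These contrasts share libraries. For ZT2, leaving out GF male 2 or either convR female gave 1 call, Cyp7a1 in each case. Leaving out GF female 2 gave 2 calls, of which only Cyp7a1 was among the 4. The count for ZT2 at an unadjusted p under 0.05 was 1367. The 4 were Cyp7a1 and Tbx3, lower, and Chac1 and Gpr132, higher.

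Gpr132, a receptor of immune cells, fell short of the level required for a named gene, and it too was picked with its values known. Its level was 0.123, 0.104, 0.205 and 0.289 CPM in convR and 0.342, 0.631, 0.381 and 0.664 CPM in GF. In the 8 libraries its value was 1.62 ± 0.39 (edgeR adjusted p = 0.0997), and the difference of ZT2 from the mean of the others was 1.84 ± 0.34 (edgeR adjusted p = 0.0452). The latter call was kept without GF male 1 or GF female 1 and lost without any other ZT2 library (without GF female 2, 1.64 ± 0.37, edgeR adjusted p = 0.213), and DESeq2 did not make it. Slc20a1, a phosphate transporter likewise chosen after its values were seen, held 48.9, 37.6, 37.8 and 30.1 CPM in convR and 24, 24.3, 16.8 and 21.2 CPM in GF. It fell by 0.72 ± 0.11 at ZT2 (edgeR adjusted p = 0.0353; called in 1 of the 8 fits that leave out a library, without GF female 2), and the difference from the other times missed the threshold (-0.80 ± 0.17, edgeR adjusted p = 0.0911).

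Levels that did not overlap between the 4 GF and 4 convR libraries were more common than calls. All 4 GF libraries were above all 4 convR libraries in 182 genes (1.09% of 16769), 37 of them among the 96. All 4 were below in 1601 genes (9.55%), 38 of them among the 96. CPM of total counts takes no account of the scaling factors, which were 0.928 to 0.981 in the GF libraries and 1.036 to 1.052 in the convR libraries.

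The sexes were compared at ZT2 by the difference of their GF effects. In the fit of 48 libraries, 289 genes were called in males (1.62%) and 9 in females (0.0504%), and the effects differed between the sexes for 4 genes (0.0224%). For that difference, 1611 of the 17867 genes had an unadjusted p under 0.05, and DESeq2 called 32. Cyp3a11, a drug-metabolising cytochrome P450 of a family of close copies, held 3680, 4890, 2610 and 2910 CPM in convR and 135, 72.7, 915 and 962 CPM in GF. It was lower in GF liver of both sexes, with log2 effects of -1.43 in females, not called by edgeR, and -5.26 in males, called lower. The difference (females minus males) was 3.84 ± 0.48 (edgeR adjusted p = 0.000115). Cyp2d9, a male-biased steroid hydroxylase, held 1160, 1190, 6.37 and 13.3 CPM in convR and 1090, 555, 37.5 and 68.8 CPM in GF. Its effects were 2.55 in females and -0.41 in males, a difference of 2.96 ± 0.47 (edgeR adjusted p = 0.00578). Itpripl1 held 5.28, 5.97, 9.82 and 11.5 CPM in convR and 8.58, 8.85, 8.01 and 8.6 CPM in GF, with effects of -0.23 in females and 0.74 in males (difference -0.98 ± 0.18, edgeR adjusted p = 0.0266). The fourth was the gene 9330133O14Rik, which fell outside the naming rule, with 0.246, 0.496, 2.61 and 2.31 CPM in convR and 1.18, 1.24, 1.37 and 0.759 CPM in GF and a difference of -2.87 ± 0.52 (edgeR adjusted p = 0.0266). Of the 8 fits that leave out a ZT2 library, the difference was called in 8 for Cyp3a11, in 5 for Cyp2d9 and in 3 for each of the other two. With the 8 ZT2 libraries alone, the difference of the sexes was called for 0 genes (edgeR), with 1563 at an unadjusted p under 0.05. Leaving out GF female 1 gave 26 calls, GF male 1 gave 14, convR female 2 gave 2, and convR female 1 or GF female 2 gave 1, which was Cyp3a11 both times.

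Sex-biased genes other than Cyp2d9 were called in males. Of 23 male-biased genes, 3 fell in GF males and 0 in GF females, and the medians were -0.42 in males and 0.43 in females. Ugt2b38, a glucuronosyltransferase of a family of close copies, held 32.1 and 21.2 CPM in convR males and 3.83 and 1.28 CPM in GF males, with 0.193 to 0.639 CPM in the females (effect in males -3.27, edgeR adjusted p = 0.00173). Ces4a, a carboxylesterase, went from 8.53 and 5.55 to 1.11 and 0.698 CPM in males (edgeR adjusted p = 0.0236), and Gstp1, a glutathione transferase, from 893 and 785 to 398 and 351 CPM (edgeR adjusted p = 0.0327). Of 27 female-biased genes, 1 rose in GF males: Cyp17a1, a steroid hydroxylase, held 9.41 and 5.42 CPM in convR males, 18.1 and 63.3 CPM in GF males, and 149 to 254 CPM in the females (effect in males 2.58, edgeR adjusted p = 0.00997). Their medians were 0.38 in males and -0.65 in females. The difference of the sexes was called by edgeR for 1 of the male-biased genes, Cyp2d9, with 11 at an unadjusted p under 0.05 and 3 called by DESeq2. It was called by edgeR for 0 of the female-biased genes, with 8 at an unadjusted p under 0.05 and 0 called by DESeq2. Of 25 genes listed for the drug-sensing receptors CAR and PXR, the receptors' own genes included, Cyp3a11, Ces2a and Ces2b fell in males. In the fit of 8 libraries 0 of the 25 were called by edgeR and 10 had an unadjusted p under 0.05 (5 higher, 5 lower). DESeq2 called 3 higher and 3 lower.

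For cholesterol synthesis the GF effects had opposite signs in the sexes, and the difference was called for 3 genes by DESeq2 and for 0 by edgeR. Of 23 tested genes, 0 were called in the 8 libraries by edgeR, 0 had an unadjusted p under 0.05, and DESeq2 called 0. In females 22 of 23 effects were negative, with a median of -0.63, and in males 23 of 23 were positive, with a median of 0.96 and 3 called higher. Hmgcs1, the HMG-CoA synthase at the entry of the pathway, held 324, 361, 1120 and 1600 CPM in convR and 1180, 1250, 678 and 312 CPM in GF, so the female controls and the GF males were high. The difference of the sexes for Hmgcs1 was -3.26 (edgeR adjusted p = 0.197). Of the 23 genes, the difference was called by edgeR for 0, with 18 at an unadjusted p under 0.05 and 3 called by DESeq2. Over all 17867 genes these numbers were 4, 1611 and 32.

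**Figure D5:**
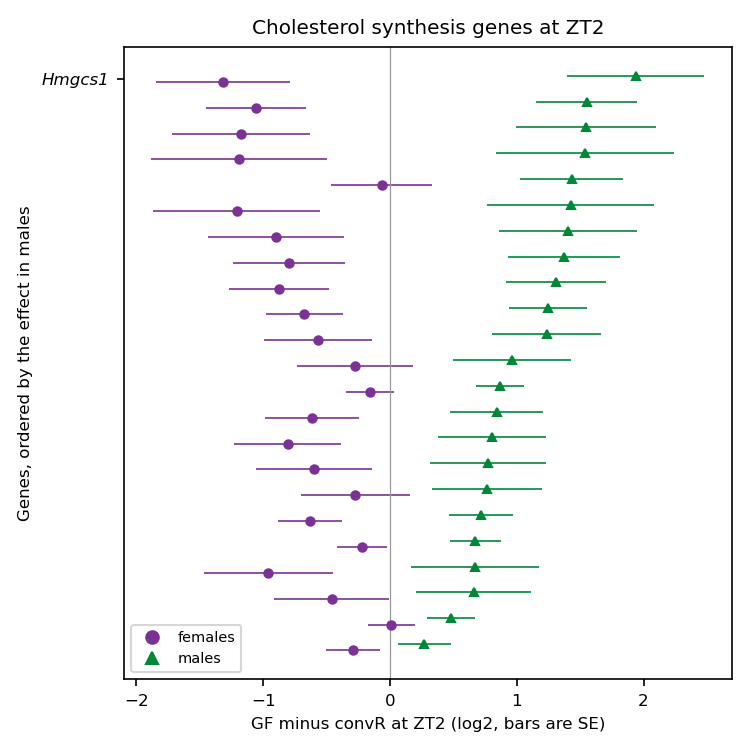
GF effect at ZT2 (log2, x axis) of the 23 cholesterol synthesis genes in females and in males from the fit of 48 libraries, 1 gene per line in the order of the effect in males (Hmgcs1 at the top), with bars of 1 SE. Female points lie left of 0 in 22 of 23 genes and male points right of 0 in 23 of 23.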

How the data were processed

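RNA was measured in liver, in libraries made from total RNA depleted of ribosomal RNA, per the labels' protocols. Raw counts of reads in the exons of 38087 genes were deposited by the authors, 1 table per sex, with an exon length column that was not used. Alignment was with STAR 2.4.0i to mm10, per the submitters' processing notes. How reads were counted, with which annotation and whether by strand is not given in the sources used here, so genes with close copies, overlapping or antisense partners are uncertain. Columns were joined to samples by the status, time and replicate number in their names and by the table for sex. Coordinates are those of GENCODE M21 on GRCm38, matched by identifier for 36308 genes.

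Counts were tested with the quasi-likelihood test of edgeR 4.0.16 (limma 3.58.1, R 4.3.3) with TMM scaling and the filterByExpr filter (minimum count 10, minimum total 15). The ZT2 effect was fitted in the 8 libraries with sex as a covariate (5 residual degrees of freedom). The contrast of ZT2 with the mean of the other 5 times, the effect at each time and the difference of the sexes were fitted in all 48 libraries with 1 coefficient per cell of sex, status and time (24 cells, 24 residual degrees of freedom). P-values were adjusted by Benjamini-Hochberg over the genes of each fit, 0.05 being the threshold, and errors of log2 fold changes are standard errors. On simulated counts the ZT2 fit recovered 87% of 200 genes changed 2-fold and 100% of those changed 4-fold, among 16377 and 16381 genes, with 14 and 9 false calls. The contrast with the other times recovered 84.5% and 97.5%. The simulated libraries were independent draws around 1 mean per gene apart from the set change, without sex differences. Changed genes had an average log2 CPM above 0. The shares therefore do not tell how many real changes were missed. Alternatives were other scalings and filters, robust dispersions, a replicate block, DESeq2 1.42.0, each ZT2 library left out, and times or sexes left out.

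The named genes are the 12 highest and 12 lowest log2 fold changes among called genes whose average log2 CPM reached 0 and which changed alike in both sexes. For the contrast with the other times they are the called genes at that level whose effect was largest at ZT2, up to 12 each way, and for the difference of the sexes the 10 of lowest adjusted p. Members of the 23 gene lists and 12 marker lists may also be named, while predicted, Rik and unnamed genes were counted only, and some members that entered the counts are not reported here by name. The libraries compared and the lists were chosen with earlier results of these data known, and the FOXO and Wnt lists after the ZT2 values were seen. Promoter sequences are those of RefSeq on GRCm38.p6, with entries for 32 of the 52 genes called higher and 24 of the 44 called lower. Cyp7a1, Tbx3 and Fst are among the genes for which none was used here.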

Additional observations from a re-analysis of the deposited data

Results flagged for a closer look

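Groups of 4 libraries were searched by Dixon's test for 1 library far from the other 3. Chance alone passes it in about 1 in 20 groups of like samples. Each group here held both sexes, and some genes were chosen after their values were seen, so that rate does not apply. In 10 of 90 groups examined, 1 library stood out in this way. Among the convR libraries these were female 1 for Irs2 (33.5 CPM) and male 1 for Trib3 (2.85 CPM), Cyp7a1 (222 CPM, the lowest) and Hspa1b (99 CPM). Among the GF libraries they were male 1 for Hist1h4m (0.3 CPM) and Csad (80.6 CPM), male 2 for Trib3 (7.05 CPM), and female 2 for Nnt (186 CPM), Pck1 (4410 CPM) and G6pc (991 CPM). In 4 genes the germ-free effect at ZT2 differed from the mean of the other 5 times by the edgeR test of that difference, on the log2 scale: Cyp7a1 by -3.10, Tbx3 by -1.30, Chac1 by 3.31 and Gpr132 by 1.84. In 4 genes the effect at ZT2 differed between females and males (females minus males): Cyp3a11 by 3.84, Cyp2d9 by 2.96, Itpripl1 by -0.98 and 9330133O14Rik by -2.87.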

How the results depend on the processing

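The 96 genes called at ZT2 became 237 with library sizes alone, 1018 with no filter, 696 with DESeq2 (93 of the 96 among them) and 494 in the fit of 48 libraries (83 of the 96). Leaving out 1 library gave 1 to 116. None of the 96 reversed in any of the 16 settings. The 4 genes at which ZT2 differed from the other times became 413 with no filter, 2 at a count minimum of 50, 1 with robust dispersions, 33 with DESeq2, and 1 to 5 with a library left out. They became 2 without the 3 GF female libraries of high Nnt. They became 7, 9, 1, 1 and 19 without ZT6, ZT10, ZT14, ZT18 and ZT22, 0 in females alone (edgeR, with 618 at an unadjusted p under 0.05; DESeq2 was not run there) and 11 in males alone. The 4 genes differing between the sexes became 519 with no filter, 32 with DESeq2, 1 to 26 with a library left out and 0 in the 8 libraries alone (edgeR, 1563 at an unadjusted p under 0.05; DESeq2 was not run there). RLE scaling left these 3 counts at 94, 3 and 4. Fits with the replicate number as a block gave 11, 1 and 4 calls, of which 9 were among the 96 and 1 was Cyp7a1. Deviations of GF and convR libraries of the same number correlated at 0.012 in ZT2 females and 0.132 in ZT2 males. Over the 12 cells of sex and time the correlations were -0.091 to 0.177. Little deviation was thus shared by number, but with 2 libraries per combination of sex, status and time this cannot exclude a pairing. Uncalled values that reversed when 1 library was left out were Hmgcs1 (-0.27 and -0.23, range to 0.999) and 9330133O14Rik (-0.25, -0.05 and -0.01, range to 0.70). The fits with fewer libraries have fewer residual degrees of freedom, and the cause of the other changes was not tested. Genes under 1 CPM, such as Chac1 and Slc15a2 in convR, rest on few counts.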
